A study of Mus musculus with 78 samples.

Results

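The comparison described here is of male B6C3F1 mice that had drunk water with 3.5 g/L dichloroacetic acid (DCA) for 10 weeks, group S1-10, with mice of the same strain and sex that had drunk deionized water alone for the same 10 weeks, group Control-10. Its members were chosen by the sample labels, and a library was used when the authors had also kept it in their normalized table. This gave 10 of the 68 kept libraries, namely mice 13 to 18 of S1-10 (n = 6) and mice 68, 69, 71 and 72 of Control-10 (n = 4), out of 12 deposited for these groups and 78 in the series. Age is labelled as 4 weeks in both groups, and the livers were collected at week 10 of the study. S1-10 was collected while the mice were still exposed. Expression was measured in archived formalin-fixed, paraffin-embedded liver sections with TempO-Seq, in which a pair of probes is joined on its target transcript and then counted, on a panel of 2755 genes that reads part of the transcriptome. Each library is 1 mouse. Results are given with and without mouse 68, since this library stands apart from the other controls.

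DCA inhibits the pyruvate dehydrogenase kinases, which normally hold back the entry of pyruvate into the tricarboxylic acid cycle, and it is itself broken down in the liver by the glutathione transferase that GSTZ1 encodes. Hepatocytes make most of the proteins of blood plasma, including complement, clotting factors and the acute phase proteins whose output rises in inflammation, and they clear lipids and foreign chemicals through enzymes that nuclear receptors such as PPARA, PXR and CAR control. Collagens of the liver come mainly from fibroblasts and from stellate cells, the latter of which lie between the hepatocytes and the sinusoids.

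The 6 libraries of S1-10 held 1441966 to 2290453 counts (median 1965692). The controls held 1233543 in mouse 68, 2206672 in mouse 69, 1736337 in mouse 71 and 2124610 in mouse 72. The ranges overlapped, and the difference in means was 106532 counts (2-sided exact permutation test, p = 0.667). Without mouse 68 the difference was -90717.2 counts (2-sided exact permutation test, p = 0.690). The number of genes with at least 1 count was 2256.8 ± 76.1 (SD, n = 6) in S1-10 and 2191 ± 104 (SD, n = 4) in Control-10 (2-sided exact permutation test, p = 0.248; p = 0.0714 without mouse 68).

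Mouse 68 differed from the rest of its group in most measures taken. Its rank correlation with the mean of the other controls was 0.746, against 0.943 to 0.958 for mice 69, 71 and 72. The root mean square difference in log2 expression between mouse 68 and each other control was 2.16 to 2.27, while mice 69, 71 and 72 differed from each other by 0.908 to 1.09 and from the S1-10 mice by 0.949 to 1.40. Mouse 68 was therefore farther from the other controls than any S1-10 mouse was from them. UGDH, which makes the sugar donor for glucuronidation, took 9.32% of its counts, whereas MUP8 or MUP19, both major urinary protein genes, and in mouse 15 SAA1, were the most abundant in the other kept libraries. In mouse 68, 158 genes exceeded the highest other control by more than 5-fold and 188 lay under 1/5 of the lowest. Some hepatocyte products were low in it, and MUP8 had 283 TMM-normalized CPM, against 110559 in mouse 69, 159534 in mouse 71 and 91175 in mouse 72. Others were high, and the 63 cytochrome P450 and conjugation enzymes tested summed to 152690 CPM, against 84839 to 92737 CPM in the other controls. The 9 hepatocyte markers tested summed to 48949 CPM in mouse 68, 122340 to 138730 CPM in the other controls and 110100 to 150910 CPM in S1-10, so the labelled tissue showed in all 10 libraries and least in this one. APOE was their most abundant marker, and 1 of the 9 had no counts in mouse 68. No pair of libraries within a group was a copy of another.

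**Figure D1:**
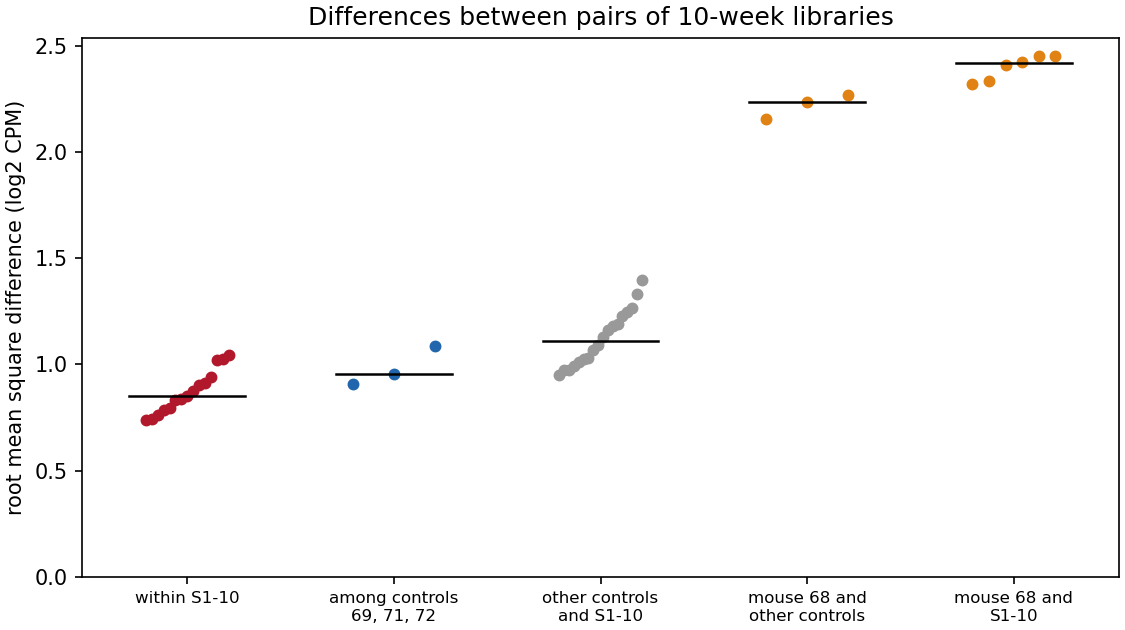
Root mean square difference in log2 CPM (vertical axis) between pairs of the 10 libraries, 1 point per pair, with bars at the median of each kind of pair. Pairs that include mouse 68 lie between 2.16 and 2.45, above all other pairs, which reach at most 1.40.

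With all 4 controls the 13-group fit called more genes lower than higher in S1-10, and both the number of genes called and the split between higher and lower depended on mouse 68 and on the model. The complement, coagulation and acute phase lists held 3 higher DEGs each and no lower one, with C3 counted in both the complement and the acute phase list, and the cell cycle list held 9 lower DEGs and no higher one. Differential expression was tested with edgeR's quasi-likelihood model in a fit of all 13 groups of the series (the 13-group fit), with Benjamini-Hochberg adjustment over 2205 genes. Genes called differentially expressed (DEGs) had to reach an adjusted p of 0.05 and change by over 1.5-fold. Changes are log2 fold changes, given with their standard error (SE). Of the genes tested, 121 were DEGs (5.49%), 24 higher (1.09%) and 97 lower (4.4%), with 464 at an unadjusted p under 0.05. Without mouse 68 the same edgeR fit gave 0 DEGs (0%), with a smallest adjusted p of 0.0524 and 204 genes at an unadjusted p under 0.05, 106 higher (4.81%) and 98 lower (4.44%). DESeq2 gave 22 or 19 DEGs without mouse 68, with and without independent filtering, and limma-voom with sample quality weights gave 288. With all 4 controls limma-voom gave 294, 162 higher and 132 lower. When S1-10 and Control-10 alone were fitted with edgeR (the 2-group fit), 291 genes were DEGs without mouse 68 (13.2%), 170 higher (7.71%) and 121 lower (5.49%). Counts of DEGs in the gene lists below are to be read beside these shares of all genes tested. The 2-group fit with all 4 controls gave 170 DEGs, 64 higher and 106 lower, so the split between higher and lower genes differed between models also with mouse 68 included. The median biological coefficient of variation was 0.554 in the 13-group fit, 0.444 in the 2-group fit and 0.304 in the 2-group fit without mouse 68.

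The share of higher and lower genes moved with this library. Among the 97 lower DEGs, mouse 68 was the highest control in 87, and among the 24 higher DEGs it was the lowest control in 21. All 24 higher DEGs kept their sign and an unadjusted p under 0.05 without it, with a median log2 fold change of 1.79 with mouse 68 and 1.599 without. Of the 97 lower DEGs, 90 kept their sign and 42 an unadjusted p under 0.05, and their median went from -2.36 to -1.10. The 13-group fit with all controls and the 2-group fit without mouse 68 shared 69 DEGs, 21 higher and 48 lower, which are 57.0% of the 121 and 23.7% of the 291, and none had opposite signs. Every S1-10 library lay above every control in 200 genes (9.07%) and below in 128 (5.8%); of the DEGs, 23 of 24 higher and 45 of 97 lower ones had groups that did not overlap. The 13-group count also moved by more than 1.5 times without mouse 14 (66 DEGs), mouse 15 (70), mouse 16 (70) or mouse 18 (64), and the count of 291 fell to 126 without mouse 71.

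**Figure D2:**
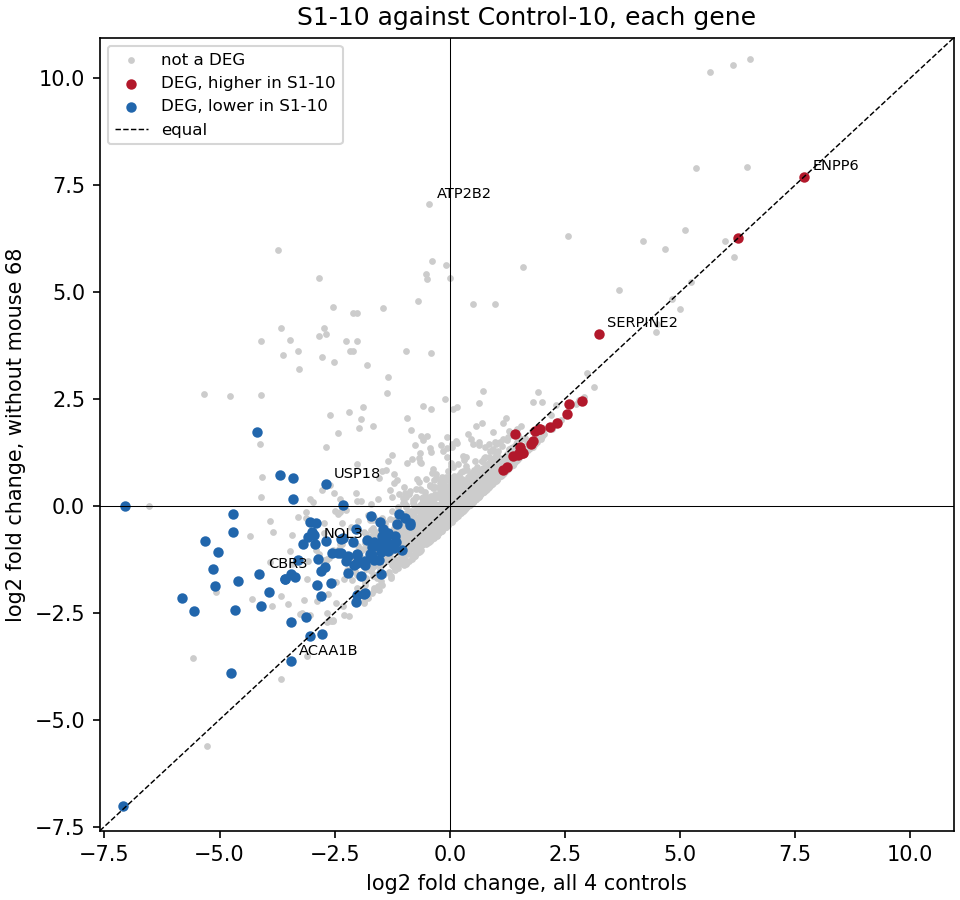
Log2 fold change of S1-10 against Control-10 in the 13-group fit with all 4 controls (horizontal axis) and without mouse 68 (vertical axis), 1 point per gene, with DEGs of the 4-control fit in red (24 higher) and blue (97 lower). The red points lie near the line of equal values, and most blue points lie above it, closer to 0 without mouse 68.

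Of 16 complement components tested, 15 had a positive log2 fold change, 3 were DEGs, and 10 had S1-10 libraries that were all above the controls. Their median log2 fold change was 0.98 (0.90 without mouse 68), beside -0.03 (0.03) for all genes tested. Without mouse 68, 9 of the 16 were higher DEGs in the 2-group fit and 0 in the 13-group fit. Their summed level was 37261 to 56632 CPM in S1-10, against 15220 CPM in mouse 68, 23783 CPM in mouse 69, 22987 CPM in mouse 71 and 19170 CPM in mouse 72, with no overlap.

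C8a, listed as C8A (ENSMUSG00000035031, chromosome 4 from 104815679 to 104876398), encodes a chain of the membrane attack complex, the pore that complement builds in a target membrane. It had 281 to 640.4 CPM in S1-10 (median 474), against 78.5 CPM in mouse 68, 145 CPM in mouse 69, 139.6 CPM in mouse 71 and 121 CPM in mouse 72. All treated mice were above all controls, and the controls stayed within a narrow range. The log2 fold change was 1.94 (SE 0.44, edgeR adjusted p = 0.00645), and without mouse 68 it was 1.79 in the 2-group fit (SE 0.25, edgeR adjusted p = 0.0014). Hc, listed as HC (ENSMUSG00000026874, chromosome 2 from 34983331 to 35061438), encodes C5, from which that complex starts. It had 3046 to 4379 CPM in S1-10 (median 3925), against 811 CPM in mouse 68, 1628 CPM in mouse 69, 860.3 CPM in mouse 71 and 950.0 CPM in mouse 72. Mouse 69 was the highest control, well under the lowest treated mouse. HC had a log2 fold change of 1.86 (SE 0.53, edgeR adjusted p = 0.0288) and 1.76 in the 2-group fit without mouse 68 (SE 0.23, edgeR adjusted p = 0.001).

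C3 (ENSMUSG00000024164, chromosome 17 from 57203970 to 57228136), on which all complement pathways converge, had 4269 to 10740.1 CPM in S1-10 (median 5318). In the controls C3 had 723 CPM in mouse 68, 2759.7 CPM in mouse 69, 2407 CPM in mouse 71 and 2343 CPM in mouse 72. The groups did not overlap, and mouse 15 was far above the other treated mice. Its log2 fold change was 1.55 (SE 0.48, edgeR adjusted p = 0.041), and 1.28 in the 2-group fit without mouse 68 (SE 0.29, edgeR adjusted p = 0.0147). C9 (ENSMUSG00000022149, chromosome 15 from 6445327 to 6498751), which closes the pore, had 7363 to 11237 CPM in S1-10 (median 9711), against 352 CPM in mouse 68, 3176 CPM in mouse 69, 3959.9 CPM in mouse 71 and 2197 CPM in mouse 72. All 6 treated mice were above all 4 controls, among which mouse 68 was far below the rest. C9 was not a DEG with mouse 68 in the 13-group fit, at 1.97 (SE 0.75, edgeR adjusted p = 0.106), and was one in the 2-group fit without mouse 68, at 1.62 (SE 0.25, edgeR adjusted p = 0.00232). The 13-group fit without mouse 68 did not call C9 either (edgeR adjusted p = 0.534). In the 13-group fits that left out 1 library, C8A lost its call without mouse 68 alone (adjusted p = 0.103), HC without mice 18, 68, 71 or 72 (adjusted p up to 0.241) and C3 without mice 13, 14, 15, 16, 18, 68, 71 or 72 (adjusted p up to 0.376).

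**Figure D3:**
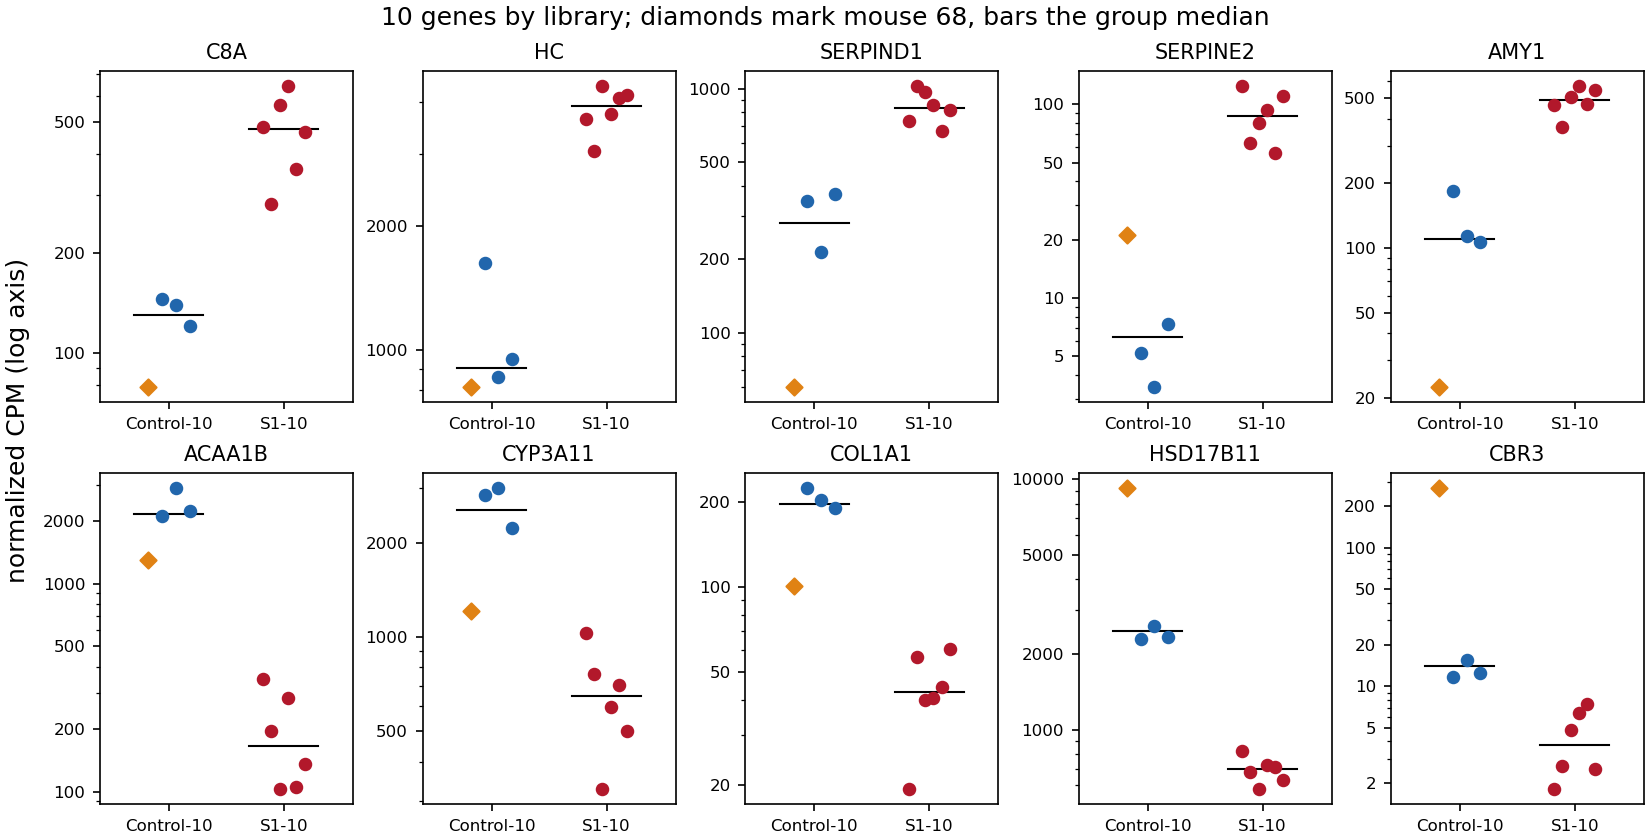
Normalized CPM of 10 genes (vertical log axes) in each library of Control-10 (blue, with mouse 68 as an orange diamond) and S1-10 (red), with bars at the group median. In each of these genes the 6 treated mice lie wholly above or wholly below the 4 controls, and in CBR3 and HSD17B11 mouse 68 lies far above the other controls.

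Promoters of some complement and acute phase genes that hold a match to the letters searched are shown as examples, chosen after the matches were seen. They span 250 bases before to 50 bases after the start of transcription in RefSeq (GRCm38.p6). Of the 60 genes matched to GENCODE vM21, 46 had such a promoter. Capitals mark a match to TTNNGNAAT, the letters searched for C/EBP factors, on either strand, in HC (chr2:35061363-35061662, minus strand), C3 (chr17:57228087-57228386, minus strand), C9 (chr15:6445096-6445395, plus strand) and SAA1 (chr7:46742931-46743230, minus strand).
HC: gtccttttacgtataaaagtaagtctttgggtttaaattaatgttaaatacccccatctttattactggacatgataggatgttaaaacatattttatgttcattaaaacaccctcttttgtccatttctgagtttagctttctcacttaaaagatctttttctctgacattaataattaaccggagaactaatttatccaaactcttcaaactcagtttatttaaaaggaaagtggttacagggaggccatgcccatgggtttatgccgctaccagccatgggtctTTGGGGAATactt
C3: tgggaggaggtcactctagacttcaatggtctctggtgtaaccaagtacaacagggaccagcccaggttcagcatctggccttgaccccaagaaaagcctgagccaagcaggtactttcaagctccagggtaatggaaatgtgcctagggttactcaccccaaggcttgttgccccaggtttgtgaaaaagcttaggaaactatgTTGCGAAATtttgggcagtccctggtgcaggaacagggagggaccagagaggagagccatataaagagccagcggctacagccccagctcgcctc
C9: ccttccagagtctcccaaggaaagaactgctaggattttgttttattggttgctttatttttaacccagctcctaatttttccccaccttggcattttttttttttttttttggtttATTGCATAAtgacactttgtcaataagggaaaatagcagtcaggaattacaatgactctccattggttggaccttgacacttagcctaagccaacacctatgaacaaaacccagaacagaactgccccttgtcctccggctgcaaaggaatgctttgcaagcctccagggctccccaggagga
SAA1: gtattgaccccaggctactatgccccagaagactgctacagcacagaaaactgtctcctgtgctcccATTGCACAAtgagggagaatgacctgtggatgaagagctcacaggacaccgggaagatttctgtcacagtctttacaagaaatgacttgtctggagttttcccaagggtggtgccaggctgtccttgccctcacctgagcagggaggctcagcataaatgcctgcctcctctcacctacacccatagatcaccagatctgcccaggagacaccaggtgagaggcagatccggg
In C8A (chr4:104876349-104876648, minus strand) and APCS (chr1:172895005-172895304, minus strand) the capitals mark a match to TTCNNNGAA, the letters searched for STAT factors, on either strand.
C8A: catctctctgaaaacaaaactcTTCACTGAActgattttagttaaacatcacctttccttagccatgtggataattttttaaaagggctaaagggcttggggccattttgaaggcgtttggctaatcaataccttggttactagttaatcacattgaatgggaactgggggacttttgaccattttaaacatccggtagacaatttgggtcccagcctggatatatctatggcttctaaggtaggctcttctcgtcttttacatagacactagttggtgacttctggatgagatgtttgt
APCS: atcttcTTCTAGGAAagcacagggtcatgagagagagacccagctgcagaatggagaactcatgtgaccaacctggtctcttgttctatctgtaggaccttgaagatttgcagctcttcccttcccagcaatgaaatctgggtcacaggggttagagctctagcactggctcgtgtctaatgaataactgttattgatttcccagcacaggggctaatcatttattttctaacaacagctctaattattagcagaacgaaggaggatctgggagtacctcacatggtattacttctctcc
The C/EBP letters were in 11.5% of all 32851 promoters, in 11% of those of the genes tested (181 of 1649), in 7 of 13 acute phase promoters (53.8%) in 5 of 13 complement promoters (38.5%) and in 2 of 12 coagulation promoters (16.7%). The STAT letters were in 8.3% of all promoters, 8.98% of those of the genes tested (148 of 1649), 5 of 13 acute phase promoters (38.5%), 3 of 13 complement promoters (23.1%) and 3 of 12 coagulation promoters (25%). Some genes are on both lists, and a match describes the letters in this window and nothing about binding.

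Acute phase proteins had a positive log2 fold change in all 16 members tested, with a median log2 fold change of 1.46 (1.36 without mouse 68), and 3 of them, HP, APCS and C3, were DEGs. In 6 of the 16 all treated mice were above all controls. Without mouse 15 or without mouse 68, none of the 16 was a DEG in the 13-group fit, and without mouse 15 their median was 1.29. In the 2-group fit without mouse 68, 4 were higher DEGs. The list summed to 437710 CPM in mouse 15, to 110480 to 168270 CPM in the other treated mice, to 7381 CPM in mouse 68, and to 87916 CPM in mouse 69, 85415 CPM in mouse 71 and 78239 CPM in mouse 72. Mouse 15 was thus far above all other libraries and mouse 68 far below, while the other 5 treated mice were still above every control.

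Hp, listed as HP (ENSMUSG00000031722, chromosome 8 from 109575128 to 109579172), encodes haptoglobin, which binds free hemoglobin. HP had 1247 to 8085 CPM in S1-10 (median 2062), against 484 CPM in mouse 68, 935 CPM in mouse 69, 885 CPM in mouse 71 and 680.4 CPM in mouse 72. The groups did not overlap, and mouse 15 was the highest by far. The change in HP was 1.96 on the log2 scale (SE 0.48, edgeR adjusted p = 0.0128), and 1.81 without mouse 68 in the 2-group fit (SE 0.56, edgeR adjusted p = 0.0511). Apcs, listed as APCS (ENSMUSG00000026542, chromosome 1 from 172893961 to 172895041), encodes serum amyloid P, a pentraxin. APCS had 322 to 4140.2 CPM in S1-10 (median 586), against 1.18 CPM in mouse 68, 227 CPM in mouse 69, 264 CPM in mouse 71 and 129 CPM in mouse 72. Again mouse 15 was far above its group and no treated mouse was within the control range. APCS had a log2 fold change of 2.87 (SE 0.81, edgeR adjusted p = 0.0266), and 2.47 in the 2-group fit without mouse 68 (SE 0.81, edgeR adjusted p = 0.061).

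Lrg1, listed as LRG1 (ENSMUSG00000037095, chromosome 17 from 56119678 to 56122001), encodes a leucine-rich glycoprotein of plasma and is not a member of the acute phase list. LRG1 had 955 to 8852 CPM in S1-10 (median 1971), against 248 CPM in mouse 68, 830.1 CPM in mouse 69, 530.1 CPM in mouse 71 and 312 CPM in mouse 72. The lowest treated mouse, mouse 14, was just above mouse 69. Its change was 2.60 (SE 0.71, edgeR adjusted p = 0.024) and without mouse 68 in the 2-group fit 2.39 (SE 0.68, edgeR adjusted p = 0.0357). Saa1, listed as SAA1 and chosen after its values were seen, encodes serum amyloid A. SAA1 had 1068 to 159953 CPM in S1-10 (median 7521), against 47.8 CPM in mouse 68, 2876 CPM in mouse 69, 2493 CPM in mouse 71 and 203 CPM in mouse 72. Mouse 15 held the highest value by far, mice 14 and 16 were within the control range, and SAA1 was not a DEG (log2 fold change 4.47, SE 1.65, edgeR adjusted p = 0.0978). Without mouse 15 its log2 fold change was 1.92 (edgeR adjusted p = 0.484). HP lost its call without mouse 15 or 68 (adjusted p up to 0.138), and APCS and LRG1 lost theirs without mouse 15, 68 or 72 (adjusted p up to 0.207). Serpina3k, listed as SERPINA3K, the most abundant member and a serine protease inhibitor, had 50106 to 93695 CPM in S1-10 (median 67524), against 229 CPM in mouse 68 and 31962 to 37397 CPM in the other controls. It was a DEG in the 2-group fit without mouse 68 (0.97, edgeR adjusted p = 0.0289) and not with mouse 68 in the 13-group fit (1.37, adjusted p = 0.301 from edgeR). The 13-group fit without mouse 68 did not call SERPINA3K either (edgeR adjusted p = 0.749).

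Coagulation factors showed the same direction in 14 of 19 members tested, with 3 DEGs, all higher, and a median log2 fold change of 0.97 (0.66 without mouse 68). Without mouse 68, 9 were higher and 1 lower DEGs in the 2-group fit. Summed, the list had 27384 to 52031 CPM in S1-10, against 3441 CPM in mouse 68, 20923 CPM in mouse 69, 19274 CPM in mouse 71 and 16647 CPM in mouse 72, with the groups apart. Serpind1, listed as SERPIND1 (ENSMUSG00000022766, chromosome 16 from 17331371 to 17343575), encodes heparin cofactor II, an inhibitor of thrombin. It had 671 to 1023 CPM in S1-10 (median 836), against 59.6 CPM in mouse 68, 347 CPM in mouse 69, 214 CPM in mouse 71 and 369 CPM in mouse 72. Every treated mouse exceeded every control. SERPIND1 had a log2 fold change of 1.77 (SE 0.41, edgeR adjusted p = 0.00667), and 1.46 in the 2-group fit without mouse 68 (SE 0.20, edgeR adjusted p = 0.0014). F5, the cofactor of the prothrombinase, had 489.9 to 801 CPM in S1-10 (median 586), against 31.9 CPM in mouse 68, 269.7 CPM in mouse 69, 146 CPM in mouse 71 and 353 CPM in mouse 72. F11, a protease of the contact pathway, had 386 to 843 CPM in S1-10 (median 597), against 74.3 CPM in mouse 68, 224 CPM in mouse 69, 238 CPM in mouse 71 and 301 CPM in mouse 72. Neither of these overlapped with the controls. F5 changed by 1.58 (adjusted p = 0.0249) and F11 by 1.502 (adjusted p = 0.0331) on the log2 scale in edgeR's 13-group fit, and in the 2-group fit without mouse 68 by 1.24 (adjusted p = 0.00789) and 1.23 (adjusted p = 0.00956). SERPIND1 lost its call without mouse 68 alone (adjusted p = 0.114), F5 without mice 14, 68 or 71 (adjusted p up to 0.298) and F11 without mice 15, 16, 18, 68 or 71 (adjusted p up to 0.359).

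**Figure D4:**
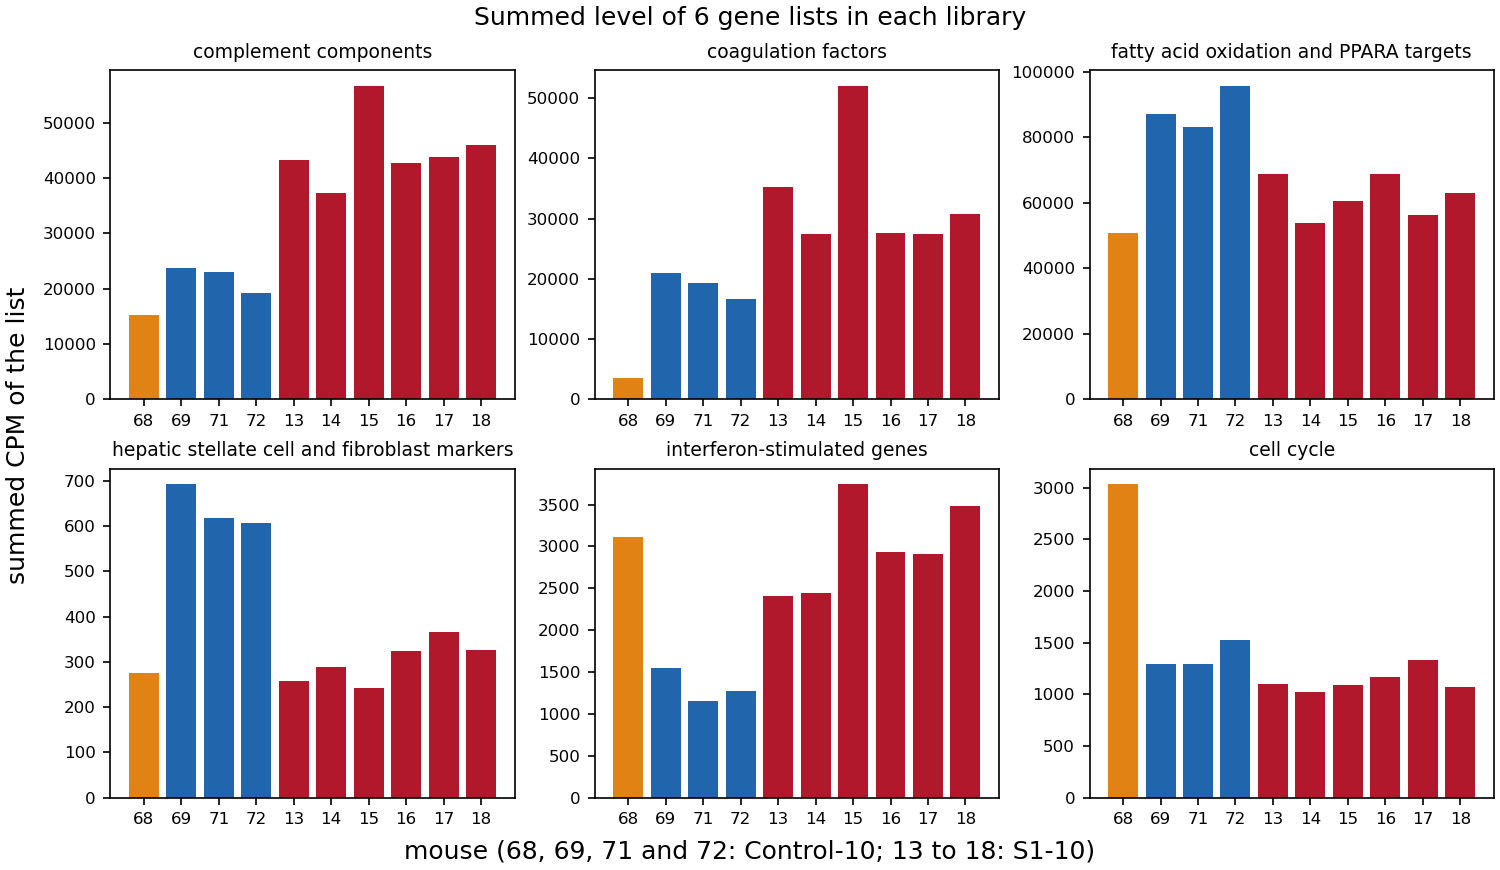
Summed CPM of 6 gene lists (vertical axes, from 0) in each library, with mouse 68 in orange, the other controls in blue and S1-10 in red. Complement and coagulation sums are higher in all 6 treated mice, sums of the 10 stellate cell and fibroblast markers lie apart only when mouse 68 is left aside, and cell cycle sums are highest in mouse 68, at 3030 CPM.

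SERPINE2 and ERO1LB were higher in every treated mouse than in the 4 kept controls. Of the left-out controls, mouse 67 was inside the treated range of SERPINE2 (103 CPM) and mouse 70 below it (8.2 CPM), and both were inside that of ERO1LB (139.7 CPM in mouse 67 and 109 CPM in mouse 70). Serpine2, listed as SERPINE2 (ENSMUSG00000026249, chromosome 1 from 79794197 to 79861180), encodes protease nexin 1, an inhibitor of thrombin and plasminogen activators. It had 56.2 to 124 CPM in S1-10 (median 86.7), against 21.2 CPM in mouse 68, 5.17 CPM in mouse 69, 3.45 CPM in mouse 71 and 7.32 CPM in mouse 72. Here mouse 68 was the highest control, so the change was larger without it. SERPINE2 changed by 3.24 (SE 0.77, edgeR adjusted p = 0.00915), and in the 2-group fit without mouse 68 by 4.02 (SE 0.38, edgeR adjusted p = 0.000257). Ero1lb, listed as ERO1LB (ENSMUSG00000057069, chromosome 13 from 12565874 to 12611396), encodes an oxidase that helps form disulfide bonds in the endoplasmic reticulum. It had 101 to 190.1 CPM in S1-10 (median 146), against 0.590 CPM in mouse 68, 35.8 CPM in mouse 69, 29.3 CPM in mouse 71 and 47.8 CPM in mouse 72. The groups were wholly apart, with mouse 68 near 0. ERO1LB changed by 2.34 (SE 0.60, edgeR adjusted p = 0.017), and by 1.94 in the 2-group fit without mouse 68 (SE 0.26, edgeR adjusted p = 0.00126). Of the 31 genes of chaperones and the unfolded protein response, 21 had a positive change, with a median of 0.51 (0.43 without mouse 68). Of the 31, 3 were DEGs, 1 higher and 2 lower, beside 1.09% and 4.4% of all genes tested. The 2-group fit without mouse 68 called 6 of the 31 higher and 1 lower, beside 7.71% and 5.49% of all genes tested. Summed, the list had 14366 to 20300 CPM in S1-10, against 8913 CPM in mouse 68 and 10958 to 13608 CPM in the other controls, without overlap. In the 13-group fits that left out 1 library, SERPINE2 and ERO1LB lost their calls without mouse 68 alone (adjusted p = 0.0524 and 0.138).

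Enpp6, listed as ENPP6 (ENSMUSG00000038173, chromosome 8 from 46986887 to 47096762), encodes a choline-specific phosphodiesterase and was seen in all treated mice and in none of the 4 kept controls. Mouse 67, a control library that the authors left out, had 25.6 CPM of ENPP6, close to the highest treated mouse. It had 5.32 to 25.8 CPM in S1-10 (median 9.39), against 0 counts in each of the 4 controls. Against the 3 counts per library that a count of 0 allows, a mean of 1.52 CPM, ENPP6 was at least 7.52-fold higher, and at least 7.96-fold without mouse 68 (adjusted p = 0.00225 from edgeR, and adjusted p = 0.00285 in the 2-group fit without mouse 68). Cd4, listed as CD4, which marks helper T cells, had 1.21 to 7.32 CPM in S1-10 (median 4.63) and 0 counts in each control, at least 2.77-fold higher (edgeR adjusted p = 0.024). CD4 had 69.6 CPM in mouse 67. It was the only DEG of 11 lymphocyte markers, of which 5 had a positive change, with a median of -0.03 (0.27 without mouse 68). The 4 lymphocyte markers counted per library, CD4 among them, summed to 30.4 to 64.6 CPM in S1-10 and to 35.99 to 53.4 CPM in Control-10, with overlap. ENPP6 and CD4 rest on few counts, and such limits cover counting error alone, since the reads carry no molecular identifiers. Both calls were lost without mouse 68 in the 13-group fit (adjusted p = 0.0524 for ENPP6 and 0.163 for CD4).

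Lama3, listed as LAMA3, a laminin chain of basement membranes, had 55.7 to 73.3 CPM in S1-10 (median 65.3), against 0.590 CPM in mouse 68, 6.03 CPM in mouse 69, 26.99 CPM in mouse 71 and 10.8 CPM in mouse 72. Cxcl12, listed as CXCL12, a chemokine, had 257 to 477 CPM in S1-10 (median 331), against 48.96 CPM in mouse 68, 131 CPM in mouse 69, 124 CPM in mouse 71 and 177 CPM in mouse 72. Amy1, listed as AMY1, an amylase made in liver and salivary gland, had 365 to 567 CPM in S1-10 (median 489.6), against 22.4 CPM in mouse 68, 184 CPM in mouse 69, 114 CPM in mouse 71 and 107 CPM in mouse 72. In all of these the 6 treated mice lay above the 4 controls. In edgeR's 13-group fit, LAMA3 changed by 2.54 (adjusted p = 0.0429), CXCL12 by 1.501 (adjusted p = 0.0308) and AMY1 by 2.18 (adjusted p = 0.0302). In the 2-group fit without mouse 68 LAMA3 changed by 2.16 (adjusted p = 0.00536), CXCL12 by 1.25 (adjusted p = 0.00262) and AMY1 by 1.85 (adjusted p = 0.001). In the 13-group fit LAMA3 lost its call in 9 of 10 fits without 1 library, all but the fit without mouse 71 (adjusted p up to 0.359), CXCL12 without mice 14, 15, 16, 68 or 71 (up to 0.335) and AMY1 without mice 16, 18, 68, 71 or 72 (up to 0.305). Genes with near-identical copies, such as AMY1, SERPINA3K, SAA1, MUP8, MUP15, ACAA1B, CYP4A10, CYP4A14, CYP2A5 and CYP3A11, are reported as the files name them, and it was not tested which copy a probe reads.

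Insig1, listed as INSIG1 (ENSMUSG00000045294, chromosome 5 from 28071363 to 28078662), encodes a sterol sensor that holds back cholesterol synthesis and was the only DEG of the 15 cholesterol synthesis genes tested. It had 242 to 1058 CPM in S1-10 (median 746), against 169 CPM in mouse 68, 232 CPM in mouse 69, 220.0 CPM in mouse 71 and 384 CPM in mouse 72. Mouse 13 was within the control range and the other 5 treated mice were above it. INSIG1 changed by 1.52 (SE 0.42, edgeR adjusted p = 0.0243), and by 1.38 in the 2-group fit without mouse 68 (SE 0.38, edgeR adjusted p = 0.0317). It lost its call in the 13-group fit without mice 18, 68 or 71 (adjusted p up to 0.229). Cholesterol synthesis genes had positive changes in 13 of 15, with a median of 0.76 (1.00 without mouse 68), and without mouse 68 the 2-group fit called 3 of them higher. One of these was CYP51, chosen after its values were seen, an enzyme of lanosterol demethylation, with 126 to 429 CPM in S1-10 (median 359), against 228 CPM in mouse 68 and 133 to 140.4 CPM in the other controls. Mouse 13 was again the lowest treated mouse, below all controls. CYP51 changed by 1.24 (edgeR adjusted p = 0.0242) in that fit and by 1.02 (edgeR adjusted p = 0.167) in the 13-group fit with mouse 68. The 13-group fit without mouse 68 did not call CYP51 either (edgeR adjusted p = 0.376).

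Of 28 genes of fatty acid oxidation and PPARA targets tested, 2 were lower DEGs, beside 4.4% of all genes tested. Of the 28, 18 had a negative change, and the median was -0.26 (-0.41 without mouse 68). Without mouse 68, 8 were lower and 3 higher DEGs in the 2-group fit, beside 5.49% and 7.71% of all genes tested. Their summed level was 53894 to 68771 CPM in S1-10, against 50696 CPM in mouse 68, 87088 CPM in mouse 69, 83251 CPM in mouse 71 and 95667 CPM in mouse 72, so that all treated mice lay below these last 3 controls and above mouse 68. Acaa1b, listed as ACAA1B (ENSMUSG00000010651, chromosome 9 from 119148023 to 119157093), encodes a thiolase that ends each round of peroxisomal beta-oxidation. It had 103 to 349 CPM in S1-10 (median 166), against 1309.6 CPM in mouse 68, 2110.4 CPM in mouse 69, 2892 CPM in mouse 71 and 2246 CPM in mouse 72. The groups were far apart with and without mouse 68. ACAA1B changed by -3.45 (SE 0.89, edgeR adjusted p = 0.017), and in the 2-group fit without mouse 68 by -3.62 (SE 0.36, edgeR adjusted p = 0.000257). Slc27a1, listed as SLC27A1, a fatty acid transporter, had 25.9 to 57.995 CPM in S1-10 (median 38.5), against 249.5 CPM in mouse 68, 88.3 CPM in mouse 69, 71.8 CPM in mouse 71 and 107 CPM in mouse 72. All treated mice were below all controls, and mouse 68 was the highest. SLC27A1 changed by -1.69 (edgeR adjusted p = 0.00649), and by -1.15 (edgeR adjusted p = 0.0179) in the 2-group fit without mouse 68. ACAA1B and SLC27A1 lost their calls in the 13-group fit without mouse 68 alone (adjusted p = 0.0761 and 0.25).

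The fatty acid omega-hydroxylases CYP4A10 and CYP4A14 and the thiolase ACAA1A, all chosen after their values were seen, varied widely among treated mice or passed in the 2-group fit alone. CYP4A14 had 0.633 to 290.0 CPM in S1-10 (median 28.6), against 660.1 CPM in mouse 68, 4236 CPM in mouse 69, 3386 CPM in mouse 71 and 4309.6 CPM in mouse 72. CYP4A10 had 1.27 to 240.4 CPM in S1-10 (median 34.6), against 29.5 CPM in mouse 68, 998 CPM in mouse 69, 693 CPM in mouse 71 and 1042 CPM in mouse 72. Mice 17 and 18 had the lowest values of both genes and mouse 13 the highest of S1-10, and CYP4A10 overlapped with the controls through mouse 68 alone. CYP4A14 changed by -5.28 (edgeR adjusted p = 0.0717) and CYP4A10 by -3.11 (edgeR adjusted p = 0.236), and in the 2-group fit without mouse 68 they changed by -5.63 (edgeR adjusted p = 0.00723) and -3.51 (edgeR adjusted p = 0.0289). ACAA1A had 3421 to 5285 CPM in S1-10 (median 3676), against 2871 CPM in mouse 68, 10062 CPM in mouse 69, 8296 CPM in mouse 71 and 11190.2 CPM in mouse 72, a change of -0.98 (edgeR adjusted p = 0.442), and of -1.25 (edgeR adjusted p = 0.00216) in the 2-group fit without mouse 68. Fabp1, listed as FABP1, the liver fatty acid binding protein and the most abundant gene of the list, had 18789 to 31399 CPM in S1-10 (median 21674) and 26487 to 42799.8 CPM in the controls, with overlap through mouse 68. FABP1 did not pass in either fit (-0.59, adjusted p = 0.479, and -0.69, adjusted p = 0.0544 without mouse 68, from edgeR).

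Enzymes of foreign chemical metabolism contained 7 lower and 0 higher DEGs among 63 tested (edgeR, 13-group fit; without mouse 68, 9 of these genes were lower and 2 higher at an unadjusted p under 0.05, and 11 were lower and 9 higher DEGs in the 2-group fit), and the median over the list was 0.20 (0.08 without mouse 68). Of the 38 NRF2 antioxidant genes 6 were lower and 0 higher DEGs in the 13-group fit, with a median of -0.13 (0.02 without mouse 68). Without mouse 68 that fit called 0 of them, and the 2-group fit called 3 higher and 8 lower, beside 7.71% and 5.49% of all genes tested. UGDH and EPHX1 are among the DEGs of both this list and that of foreign chemical metabolism in the 13-group fit with all controls. Cyp3a11, listed as CYP3A11 (ENSMUSG00000056035, chromosome 5 from 145854426 to 145879964), the main PXR-controlled drug oxidase of mouse liver, had 326 to 1031 CPM in S1-10 (median 648), against 1216 CPM in mouse 68, 2845 CPM in mouse 69, 2998 CPM in mouse 71 and 2242 CPM in mouse 72. The groups did not overlap, and mouse 68 was the lowest control. CYP3A11 changed by -1.83 (SE 0.49, edgeR adjusted p = 0.0206), and by -2.04 in the 2-group fit without mouse 68 (SE 0.27, edgeR adjusted p = 0.001). Ephx1, listed as EPHX1, microsomal epoxide hydrolase, had 609 to 919 CPM in S1-10 (median 789.6), against 5385 CPM in mouse 68, 1663 CPM in mouse 69, 2336 CPM in mouse 71 and 1798 CPM in mouse 72. Cyp2c38, listed as CYP2C38, a cytochrome P450 more abundant in female liver, had 10.9 to 37.3 CPM in S1-10 (median 18.6), against 342 CPM in mouse 68, 97.4 CPM in mouse 69, 63.7 CPM in mouse 71 and 134 CPM in mouse 72. All treated mice were below all controls in both genes, with mouse 68 the highest. EPHX1 changed by -1.83 (adjusted p = 0.017) and CYP2C38 by -2.80 (adjusted p = 0.0331), and in the 2-group fit without mouse 68 by -1.30 (adjusted p = 0.001) and -2.09 (adjusted p = 0.00492), all from edgeR. CYP3A11 and EPHX1 lost their calls in the 13-group fit without mouse 68 alone (adjusted p = 0.0761 and 0.339) and CYP2C38 without mice 13, 14, 17, 18 or 68 (up to 0.394).

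For CYP2A5, UGDH and CBR3 the size of the change came largely from mouse 68. Cyp2a5, listed as CYP2A5, a coumarin hydroxylase, had 308 to 848 CPM in S1-10 (median 713), against 22966 CPM in mouse 68, 1329 CPM in mouse 69, 2731 CPM in mouse 71 and 1963 CPM in mouse 72. UGDH had 1789 to 2630.0 CPM in S1-10 (median 2158), against 67826 CPM in mouse 68, 4599 CPM in mouse 69, 12304 CPM in mouse 71 and 3621 CPM in mouse 72. Cbr3, listed as CBR3, a carbonyl reductase, had 1.81 to 7.49 CPM in S1-10 (median 3.75), against 269.6 CPM in mouse 68, 11.6 CPM in mouse 69, 15.5 CPM in mouse 71 and 12.5 CPM in mouse 72. The treated mice were below all controls in each of these, also without mouse 68. CYP2A5 changed by -3.45 (adjusted p = 0.00489), UGDH by -3.35 (adjusted p = 0.00649) and CBR3 by -4.13 (adjusted p = 0.00138) in edgeR's 13-group fit. Without mouse 68 the same fit gave -1.60 (adjusted p = 0.451), -1.66 (adjusted p = 0.443) and -1.59 (adjusted p = 0.454), and the 2-group fit gave -1.60 (adjusted p = 0.00411), -1.66 (adjusted p = 0.00544) and -1.57 (adjusted p = 0.0433).

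Of 10 stellate cell and fibroblast markers tested, 2 were lower DEGs and 7 had a negative change, with a median of -0.73 (-0.93 without mouse 68), and the 2-group fit without mouse 68 called 5 lower. Their summed level overlapped, at 243 to 365 CPM in S1-10 and 275 CPM in mouse 68, and the other controls had 607 to 692 CPM. Of 28 collagen and matrix genes, 3 were lower and 2 higher DEGs (SERPINE2 and LAMA3), with a median of -0.70 (-0.47 without mouse 68). The 2-group fit without mouse 68 called 6 lower and 2 higher. Their sum, in which FN1 was the most abundant gene, was 5740 to 9639 CPM in S1-10 and 4414 to 6516 CPM in the controls, with overlap. COL1A1 (gene Col1a1, ENSMUSG00000001506, at 94936224 to 94953042 of chromosome 11), the main chain of fibrillar collagen, had 19.3 to 60.7 CPM in S1-10 (median 42.5), against 101 CPM in mouse 68, 224 CPM in mouse 69, 204 CPM in mouse 71 and 191 CPM in mouse 72. The groups did not overlap. COL1A1 changed by -2.05 (SE 0.61, edgeR adjusted p = 0.0338), and by -2.24 in the 2-group fit without mouse 68 (SE 0.27, edgeR adjusted p = 0.001). COL3A1, another fibrillar collagen, chosen after its values were seen, had 11.5 to 27.8 CPM in S1-10 (median 16.2), against 21.8 CPM in mouse 68, 67.6 CPM in mouse 69, 45.4 CPM in mouse 71 and 69.8 CPM in mouse 72. It was apart from the controls without mouse 68 only, with a change of -1.75 in the 2-group fit (edgeR adjusted p = 0.00285) and of -1.50 with mouse 68 in the 13-group fit (edgeR adjusted p = 0.131). The 13-group fit without mouse 68 did not call COL3A1 either (edgeR adjusted p = 0.305).

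The 5 stellate cell markers on the panel (ACTA2, COL1A1, COL1A2, COL3A1 and LRAT) summed to 84.6 to 166 CPM in S1-10, against 169 CPM in mouse 68, 428 CPM in mouse 69, 333 CPM in mouse 71 and 388 CPM in mouse 72. COL1A1 was the most abundant of them and none was without counts in any of the 10 libraries. In a bulk section, fewer cells of a type and less RNA per cell cannot be told apart. Timp1, listed as TIMP1, an inhibitor of matrix proteases, had 0 to 4.84 CPM in S1-10 (median 1.61), against 31.3 CPM in mouse 68, 13.4 CPM in mouse 69, 14.9 CPM in mouse 71 and 6.03 CPM in mouse 72. Igfbp6, listed as IGFBP6, which binds insulin-like growth factor 2, had 1.21 to 4.68 CPM in S1-10 (median 2.65), against 10.0 CPM in mouse 68, 23.7 CPM in mouse 69, 9.19 CPM in mouse 71 and 33.6 CPM in mouse 72. Both were lower in all treated mice than in all controls, at low levels. TIMP1 changed by -3.12 (adjusted p = 0.046) and IGFBP6 by -2.78 (adjusted p = 0.0191), and in the 2-group fit without mouse 68 by -2.59 (adjusted p = 0.0462) and -2.97 (adjusted p = 0.00244), all from edgeR. In the 13-group fit COL1A1 kept its call only without mouse 72 (adjusted p up to 0.115 in the other fits without 1 library), TIMP1 kept its own only without mice 15, 69 or 72 (up to 0.37) and IGFBP6 lost its call without mouse 68 alone (0.0761).

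Cell cycle genes had negative changes in 45 of 51 members with all controls and in 35 without mouse 68, and their median was -1.21 and -0.53. Of these genes 9 were lower DEGs in the 13-group fit and 0 without mouse 68 (edgeR; 4 at an unadjusted p under 0.05), and the 2-group fit without mouse 68 called 4 lower. Their summed level was 1024 to 1336 CPM in S1-10, against 3030 CPM in mouse 68, 1295 CPM in mouse 69, 1297 CPM in mouse 71 and 1521 CPM in mouse 72, so the treated mice overlapped with the controls. Cdc45, listed as CDC45 (ENSMUSG00000000028, chromosome 16 from 18780447 to 18811987), part of the replicative helicase, had 6.09 to 8.46 CPM in S1-10 (median 6.93), against 23.6 CPM in mouse 68, 26.3 CPM in mouse 69, 24.1 CPM in mouse 71 and 40.1 CPM in mouse 72. The treated mice were close together and all below the controls, and mouse 68 was not apart from its group. CDC45 changed by -2.01 (SE 0.55, edgeR adjusted p = 0.024), and by -2.08 in the 2-group fit without mouse 68 (SE 0.27, edgeR adjusted p = 0.001). Cdc20, listed as CDC20, an activator of the anaphase-promoting complex, had 0.604 to 7.37 CPM in S1-10 (median 3.99), against 210.0 CPM in mouse 68, 11.6 CPM in mouse 69, 19.5 CPM in mouse 71 and 21.1 CPM in mouse 72. It also did not overlap, and its change went from -3.93 (edgeR adjusted p = 0.0191) to -2.00 (edgeR adjusted p = 0.0326) in the 2-group fit without mouse 68. CCND1, cyclin D1, chosen after its values were seen, had 11.5 to 29.7 CPM in S1-10 (median 18.3) and 55.7 to 86.6 CPM in the controls, a change of -1.85 (edgeR adjusted p = 0.0569), and of -1.78 (edgeR adjusted p = 0.00276) in the 2-group fit without mouse 68. The 13-group fit without mouse 68 did not call CCND1 either (edgeR adjusted p = 0.298). CDC45 lost its call in the 13-group fit without mice 68 or 72 (adjusted p up to 0.103), and CDC20 without mouse 68 alone (0.536).

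IGFBP3, AP2M1, HSD17B11 and RHEB were lower in all treated mice than in all controls. IGFBP3 and RHEB are on the list of insulin and growth factor signalling. Of its 23 genes tested, 5 were lower DEGs and 0 higher, with a median of -0.23 (-0.10 without mouse 68). The 2-group fit without mouse 68 called 3 of them lower and 0 higher. Igfbp3, listed as IGFBP3 (ENSMUSG00000020427, chromosome 11 from 7206086 to 7213923), the main carrier of insulin-like growth factors in plasma, had 127 to 222 CPM in S1-10 (median 174), against 1597 CPM in mouse 68, 351 CPM in mouse 69, 359.5 CPM in mouse 71 and 426 CPM in mouse 72. Ap2m1, listed as AP2M1, an adaptor of clathrin-coated pits, had 74.6 to 166 CPM in S1-10 (median 115), against 261 CPM in mouse 68, 351 CPM in mouse 69, 735 CPM in mouse 71 and 410.0 CPM in mouse 72. Mouse 68 was the highest control for the former and the lowest for the latter. HSD17B11, a steroid dehydrogenase of lipid droplets, chosen after its values were seen, had 580.1 to 823 CPM in S1-10 (median 695), against 9236 CPM in mouse 68, 2302 CPM in mouse 69, 2605 CPM in mouse 71 and 2338 CPM in mouse 72. Rheb, listed as RHEB, the GTPase that activates mTORC1, had 310.0 to 506 CPM in S1-10 (median 363), against 786 CPM in mouse 68, 701 CPM in mouse 69, 1047 CPM in mouse 71 and 616 CPM in mouse 72. In edgeR's 13-group fit the changes were -2.00 for IGFBP3 (adjusted p = 0.000651), -1.87 for AP2M1 (adjusted p = 0.017), -2.57 for HSD17B11 (adjusted p = 0.00138) and -1.04 for RHEB (adjusted p = 0.017). In the 2-group fit without mouse 68 they were -1.15 (adjusted p = 0.00243), -2.06 (adjusted p = 0.001), -1.80 (adjusted p = 2.98e-05) and -1.04 (adjusted p = 0.00652). All 4 calls were lost without mouse 68 in the 13-group fit (adjusted p = 0.114 for IGFBP3, 0.0761 for AP2M1, 0.103 for HSD17B11 and 0.103 for RHEB), and AP2M1 and RHEB were also lost without mouse 71.

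Of 26 immediate-early genes tested, 22 had a negative change and 4 were lower DEGs, with a median of -0.69 (-0.66 without mouse 68). The 2-group fit without mouse 68 called 3 lower, beside 5.49% of all genes tested. All treated mice were below all controls in 1 of the 26, beside 5.8% of all genes tested. Cebpb, listed as CEBPB, a factor that drives acute phase genes, had 2335 to 5758 CPM in S1-10 (median 3075), against 30679 CPM in mouse 68, 6393 CPM in mouse 69, 16026 CPM in mouse 71 and 4569.7 CPM in mouse 72. Mice 13 and 18 exceeded mouse 72. CEBPB was a lower DEG in the 13-group fit (-2.01, edgeR adjusted p = 0.017), lost its call there without mouse 68 alone (adjusted p = 0.376), and was a lower DEG in the 2-group fit without mouse 68 (-1.33, SE 0.38, edgeR adjusted p = 0.0377). Atf3, listed as ATF3, a stress-induced factor, had 1.33 to 12.1 CPM in S1-10 (median 3.51), against 38.9 CPM in mouse 68, 26.3 CPM in mouse 69, 88.4 CPM in mouse 71 and 9.04 CPM in mouse 72. Mouse 13 was above mouse 72 here too. ATF3 changed by -3.03 (edgeR adjusted p = 0.0338), and by -3.04 (edgeR adjusted p = 0.0121) in the 2-group fit without mouse 68; in the 13-group fit it kept its call only without mice 13, 69 or 72 (adjusted p up to 0.171).

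Other genes were called with mouse 68 and in neither edgeR fit without it, or changed sign without it. Usp18, listed as USP18, which removes ISG15 and limits interferon signalling, had 65.1 to 97.5 CPM in S1-10 (median 76.1), against 1858 CPM in mouse 68, 75.4 CPM in mouse 69, 40.2 CPM in mouse 71 and 49.5 CPM in mouse 72. It was a lower DEG with mouse 68 (-2.69, adjusted p = 0.024 from edgeR), and its change was 0.50 without it (edgeR adjusted p = 0.872). Nol3, listed as NOL3, an inhibitor of apoptosis, had 7.32 to 20.2 CPM in S1-10 (median 10.8), against 309.7 CPM in mouse 68 and 20.2 to 27.1 CPM in the other controls, and its change went from -2.93 (edgeR adjusted p = 0.00138) to -0.90 (edgeR adjusted p = 0.609). Atp2b2, listed as ATP2B2, a calcium pump of the plasma membrane, had 0 to 16.6 CPM in S1-10 (median 6.23), against 40.7 CPM in mouse 68 and 0 counts in mice 69, 71 and 72. The left-out mouse 67 had 134 CPM of ATP2B2, far above every treated mouse. Without mouse 68 ATP2B2 was at least 5.07-fold higher, seen in 5 of 6 treated mice (adjusted p = 0.0761 in the 13-group fit and 0.0278 in the 2-group fit, from edgeR), and with it the log2 fold change was -0.45 (edgeR adjusted p = 0.823).

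The direct targets of DCA could be followed only in part, since the panel lacks PDK1 to PDK4. Gstz1, listed as GSTZ1, had 2806 to 4074 CPM in S1-10 (median 3209.9), against 7629 CPM in mouse 68, 2685 CPM in mouse 69, 2503 CPM in mouse 71 and 2584 CPM in mouse 72. All treated mice were above these last 3 controls and below mouse 68, and GSTZ1 passed in neither fit (-0.21, adjusted p = 0.773 in the 13-group fit; 0.37, adjusted p = 0.161 in the 2-group fit without mouse 68, from edgeR). Pdha1, listed as PDHA1, the catalytic subunit of pyruvate dehydrogenase, had 68.4 to 92.4 CPM in S1-10 (median 79.1), against 22.4 CPM in mouse 68, 72.4 CPM in mouse 69, 41.4 CPM in mouse 71 and 79.7 CPM in mouse 72, with overlap (0.55, adjusted p = 0.614 from edgeR). Dld, listed as DLD, its dihydrolipoamide dehydrogenase, had 287 to 405 CPM in S1-10 (median 380.3), against 14.7 CPM in mouse 68, 429 CPM in mouse 69, 338 CPM in mouse 71 and 424 CPM in mouse 72, also with overlap (0.28, adjusted p = 0.867 from edgeR). Without mouse 68 the change in DLD was -0.12 in the 13-group fit. The median of the pyruvate dehydrogenase list was 0.23 with 3 genes positive, and -0.105 with 1 positive without mouse 68. Among the 4 tested genes of the pyruvate dehydrogenase list, none was a DEG in either edgeR fit, with 0 at an unadjusted p under 0.05 without mouse 68, and the same held for the 4 of haloacid and tyrosine catabolism.

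Other metabolic lists had few DEGs in the 13-group fit. The median log2 fold change was -0.30 (-0.29 without mouse 68) over 20 genes of glucose and glycogen metabolism with 1 lower DEG, -0.20 (-0.08) over 9 genes of the TCA cycle, -0.09 (-0.07) over 22 genes of the respiratory chain and -0.22 (-0.20) over 11 genes of fatty acid synthesis and storage, the last 3 without a DEG in the 13-group fit by edgeR. At an unadjusted p under 0.05 without mouse 68, 1 gene was lower in the TCA cycle list and 3 were lower and 1 higher in the respiratory chain list, and the 2-group fit called 2 lower in the former and 4 lower and 1 higher in the latter. Of the fatty acid synthesis and storage list, 1 gene was lower at an unadjusted p under 0.05 without mouse 68, and the 2-group fit without mouse 68 called 2 lower and 1 higher. Bile acid genes had a median of 0.91 (0.74 without mouse 68) over 15 genes, of which the 2-group fit without mouse 68 called 6 higher and 1 lower and the 13-group fit none. Markers of endothelial cells (median 0.05, and -0.17 without mouse 68) and of macrophages (0.31 and 0.12) had no DEGs in either edgeR fit. The 5 macrophage markers summed to 507 to 813 CPM in S1-10, against 211 CPM in mouse 68 and 559 to 654 CPM in the other controls. C1QB was the most abundant of them.

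**Figure D5:**
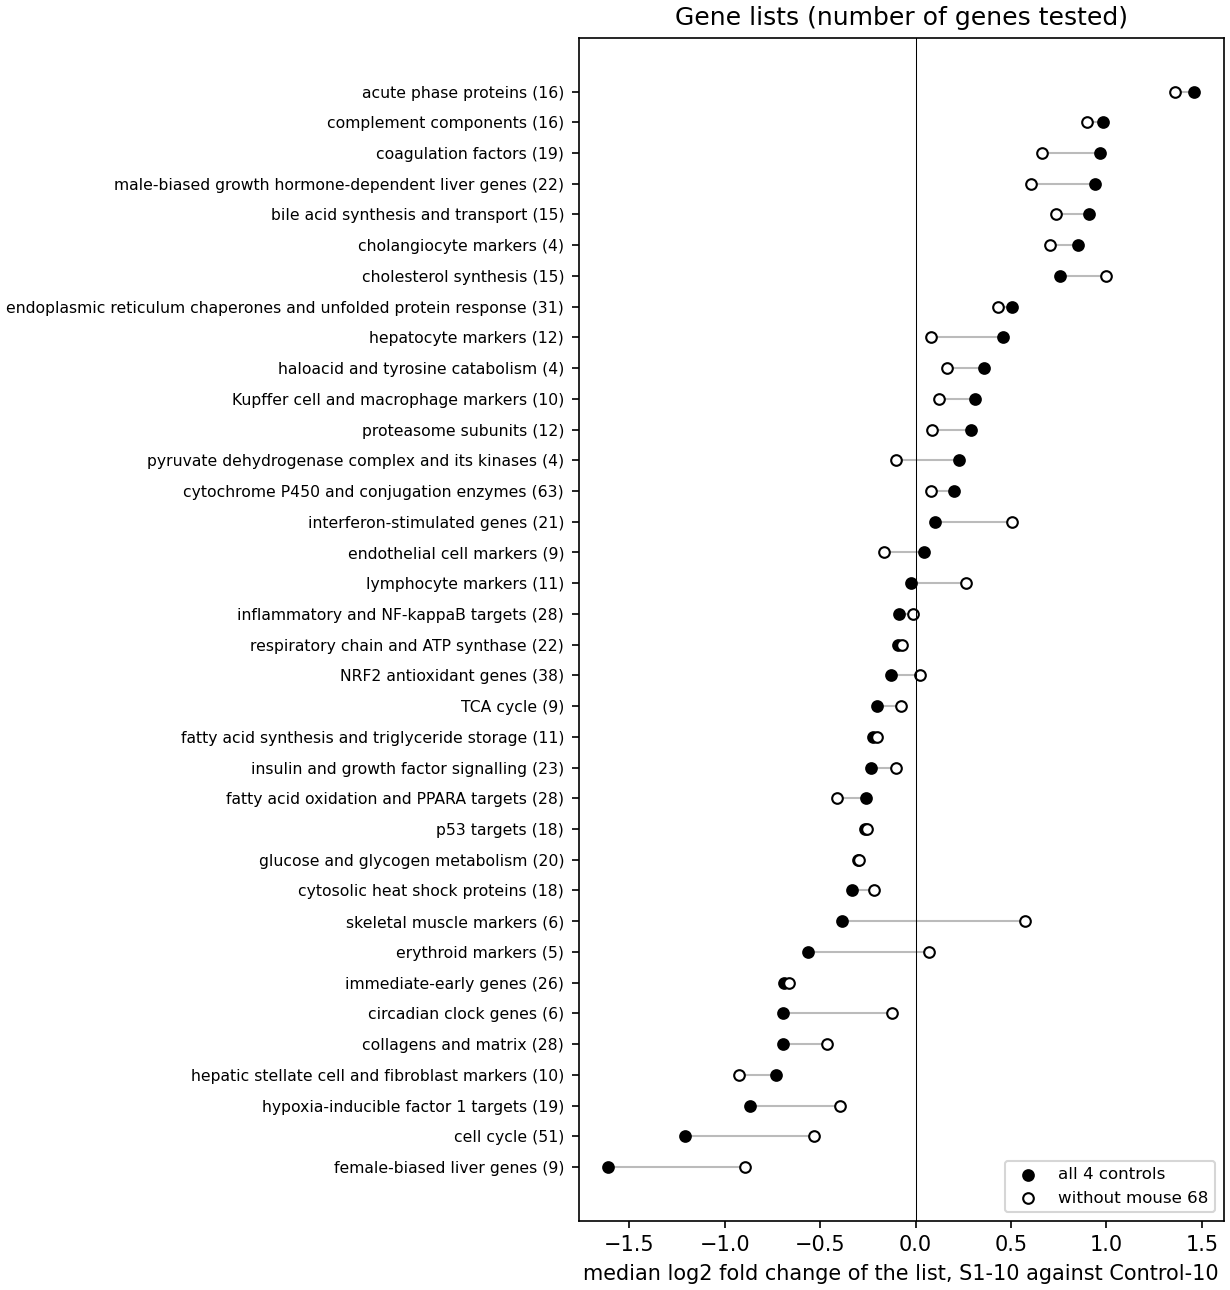
Median log2 fold change of S1-10 against Control-10 in the 13-group fit (horizontal axis) for 36 gene lists, with the number of genes tested in brackets, with all 4 controls (filled) and without mouse 68 (open). Acute phase and complement lists have the highest medians with all controls, 1.46 and 0.98, and cell cycle and female-biased lists move toward 0 without mouse 68; the list of pancreatic markers is left out of the plot.

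To ask where the change at 10 weeks departed from that at later times, it was compared with the change in S2-32, mice collected at week 32 after 32 weeks of DCA (n = 6), against Control-32, mice on water for 32 weeks (n = 6). The difference between the changes passed an adjusted p of 0.05 in 41 genes (1.86%), 12 with the higher change in S1-10 and 29 with the lower (edgeR, 333 at an unadjusted p under 0.05), and 19 of them were DEGs of S1-10. Without mouse 68 it passed in 21 genes, 16 of which were among the 41. COL1A1 fell at 10 weeks and rose in S2-32 (2.72, adjusted p = 0.00335 from edgeR), a difference of -4.76 on the log2 scale (SE 0.85, edgeR adjusted p = 0.000752; -4.96, adjusted p = 0.000705 without mouse 68). COL3A1 differed by -3.45 (adjusted p = 0.0183) and, without mouse 68, by -3.70 (adjusted p = 0.0171, from edgeR). SERPINE2 differed by 4.45 (adjusted p = 0.0113), and by 5.23 without mouse 68 (adjusted p = 0.00427, from edgeR), with a change of -1.21 in S2-32 (adjusted p = 0.184). CYP3A11 changed by 0.91 in S2-32 (adjusted p = 0.165), and the difference was -2.74 (adjusted p = 0.0183), or -2.96 without mouse 68 (adjusted p = 0.0171, from edgeR). C9 was lower in S2-32 than in its controls (-2.46, adjusted p = 0.0115 from edgeR), and the difference was 4.44 (adjusted p = 0.0118), or 4.08 without mouse 68 (adjusted p = 0.0431, from edgeR).

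RRM1, a subunit of ribonucleotide reductase, chosen after its values were seen, had 39.3 to 53.4 CPM in S1-10 (median 50.5) and 52.5 to 85.3 CPM in Control-10. It overlapped through mouse 68, did not pass (-0.44, adjusted p = 0.362 from edgeR) and rose in S2-32 (1.61, adjusted p = 6.77e-05 from edgeR), a difference of -2.05 (adjusted p = 0.000752; -2.14, adjusted p = 0.000705 without mouse 68, from edgeR). Cavin2, listed as SDPR, which shapes caveolae, had a difference of -1.75 (adjusted p = 0.031; -1.94, adjusted p = 0.0237 without mouse 68, from edgeR). In S1-10 SDPR was lower in all treated mice than in mice 69, 71 and 72, and its change was -1.08 in the 2-group fit without mouse 68 (SE 0.23, edgeR adjusted p = 0.01). ACAA1B differed by -4.20 (adjusted p = 0.0433) and HSD17B11 by -2.90 (adjusted p = 0.0118), and without mouse 68 by -4.38 (adjusted p = 0.0643) and -2.13 (adjusted p = 0.106), all from edgeR. The count of 41 was 26, 21, 26, 27, 23 and 26 without mice 16, 18, 39, 40, 41 and 42 of the treated groups, 27 without mouse 71 and 80 and 21 without mice 74 and 78 of Control-32.

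Compared with S1-32, mice that had 10 weeks of DCA and then 22 weeks of water (n = 6), the change in S1-10 differed in 0 genes by edgeR (0%; smallest adjusted p 0.117, 220 at an unadjusted p under 0.05), in 15 by DESeq2, and in 16 by edgeR without mouse 74 of Control-32. Without mouse 68 edgeR found 2 genes, ATP2B2 (8.90, adjusted p = 0.0159) and CPS1 (-3.37, adjusted p = 0.0159). The value for ATP2B2 is a fitted one for a gene without counts in mice 69, 71 and 72 and gives no size of the difference. Cps1, listed as CPS1, the first enzyme of the urea cycle, chosen after its values were seen, had 69.98 to 177 CPM in S1-10 (median 99.4), against 1.18 CPM in mouse 68, 483 CPM in mouse 69, 279.7 CPM in mouse 71 and 480.2 CPM in mouse 72. All treated mice were below the last 3 controls and above mouse 68. CPS1 changed by -1.55 with all controls (edgeR adjusted p = 0.117), and by -1.95 in the 2-group fit without mouse 68 (SE 0.28, edgeR adjusted p = 0.00143).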

How the data were processed

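The authors matched TempO-Seq reads to the panel's probes and deposited raw counts of 2755 genes in 78 libraries. The submitters' processing notes name Bowtie, DESeq2, Partek 10.0.22.0524 and mm10. The authors' normalized signal, deposited for 68 libraries, equals the count plus 1 over a factor of the median-ratio kind, and 2205 genes remain in their filtered table. The relation of this signal to the counts was checked on the values. The authors state that they left out libraries by rank correlation, a rule that was not reproduced. Mice 67 and 70 of Control-10 are absent from their normalized signal.

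For those 68 libraries and 2205 genes, edgeR 4.0.16 (R 4.3.3) fitted the raw counts by quasi-likelihood in 1 model of 13 groups, scaled by TMM; tests were 2-sided and adjusted by Benjamini-Hochberg. CPM are TMM-normalized, and those of mice 67 and 70 come from a scaling with all 78 libraries. Groups came from the labels. Exact permutation tests were run over the 210 arrangements of 6 against 4 mice, which can reach p = 0.00476, and over 84 without mouse 68, which can reach p = 0.0119. A gene without counts in a group was bounded by 3 counts per library, a 95% limit of counting error alone. DESeq2 1.42.0, limma 3.58.1, Python 3.11.15 and matplotlib 3.10.9 were used for alternatives, tables and plots, and the pipeline was tested on simulated data. Positions are on GRCm38 and follow GENCODE vM21, to which 60 of the genes described were matched, 1 by a synonym. AMY2A5 was not among them.

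Members and the 37 gene lists were chosen with earlier results of these data known. Named were genes the study names for S1-10; among DEGs without overlap and with at least 10 CPM in 1 group, up to 8 with the largest change in each direction, and likewise among those at an unadjusted p under 0.05 without mouse 68; the 5 genes in each direction with the smallest p without mouse 68; up to 4 DEGs and the most abundant member of each list; and PDHA1, DLD, GSTZ1 and PDK1 to PDK4. Some of these are not described here.

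Alternatives were factors by RLE or upper quartile, every gene that had counts, filterByExpr, all 78 libraries, DESeq2, limma-voom, robust estimation, the authors' normalized values, the compared groups alone, the adjusted p alone, library total or detected genes as a covariate, and each library left out. Added after seeing the data were library measures without mouse 68, list medians without mouse 15 or 17, and the 2-group fit without mouse 68 and each other library.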

Additional observations from a re-analysis of the deposited data

Results flagged for a closer look

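Of 124 sets of values, each of 1 gene or measure in 1 group, 20 held a single library far from the others of its group, 12 of them mouse 68 and 5 mouse 15. The rule is set to flag about 1 in 20 sets by chance. That rate is no measure for this count, since many of the genes were chosen from these same data. In S1-10, mouse 15 stood far above the other treated mice in C3 (10740.1 CPM), HP (8085 CPM), APCS (4140.2 CPM), LRG1 (8852 CPM) and SAA1 (159953 CPM), and mouse 16 in ENPP6 (25.8 CPM). The calls of C3, HP, APCS and LRG1 were lost without mouse 15, with the values given above. In Control-10, mouse 69 was far above the others in HC (1628 CPM) and mouse 72 in CDC45 (40.1 CPM). Mouse 68 was far below the other controls in SERPINA3K (229 CPM) and far above them in CYP2A5 (22966 CPM), UGDH (67826 CPM), CBR3 (269.6 CPM), IGFBP3 (1597 CPM), CDC20 (210.0 CPM), HSD17B11 (9236 CPM), NOL3 (309.7 CPM), USP18 (1858 CPM), GSTZ1 (7629 CPM), ATP2B2 (40.7 CPM) and CYP51 (228 CPM). The cause was not tested.

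The change in S1-10 differed from that in S2-32 in 41 genes by edgeR's test of the difference. On the log2 scale, S1-10 minus S2-32, the difference was 4.44 for C9, 2.64 for ERO1LB, 4.45 for SERPINE2, 9.40 for ENPP6, -4.20 for ACAA1B, -2.74 for CYP3A11, -3.63 for CYP2A5, -3.69 for CBR3, -4.76 for COL1A1, -3.45 for COL3A1, -2.07 for IGFBP3, -5.19 for CDC20, -2.88 for CCND1, -2.38 for AP2M1, -2.90 for HSD17B11, -1.75 for SDPR and -2.05 for RRM1. The value for ENPP6 is a fitted one for a gene without counts in Control-10 and is no bound. Without mouse 68 the difference did not pass for 8 of these genes, by edgeR: CYP2A5 (-1.78, adjusted p = 0.352), CBR3 (-1.14, adjusted p = 0.616), IGFBP3 (-1.21, adjusted p = 0.165), CDC20 (-3.28, adjusted p = 0.209), ERO1LB (2.24, adjusted p = 0.123), CCND1 (-2.82, adjusted p = 0.0933), ACAA1B (-4.38, adjusted p = 0.0643) and HSD17B11 (-2.13, adjusted p = 0.106).

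Signal was also seen in the 2 control libraries that the authors left out. Mouse 67 had 196 genes at over 5 times the highest kept control and above 3 counts, and mouse 70 had 14.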

How the results depend on the processing

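Among comparisons of a named gene under another setting, 1184 kept direction and side of the thresholds, 34 became called, 147 lost the call and 15 changed sign. The count of 121 DEGs was 236 with all deposited libraries (25 higher, 211 lower), 244 and 241 with DESeq2 (with and without independent filtering; 59 higher, 185 lower and 58 higher, 183 lower), 294 with limma-voom, 40 with limma on the authors' normalized values (20 higher, 20 lower) and 72 when the log2 total count was a covariate (25 higher, 47 lower), and ranged from 0 to 151 without 1 library. With upper-quartile or RLE factors the median over all genes was -0.16 or -0.11 in place of -0.03, with 25 higher and 123 lower or 28 higher and 113 lower DEGs. The count of 0 without mouse 68 was 2 with RLE factors, 291 in the 2-group fit, 22 and 19 with DESeq2 and 288 with limma-voom, and 0 to 3 without 1 more library; the 291 ranged from 126 to 319. The 41 genes differing from S2-32 were 21 without mouse 68, 118 with DESeq2 and 21 to 80 without 1 library. The 0 differing from S1-32 were 2 without mouse 68, 1 with the 4 groups alone, 15 with DESeq2 and 0 to 16 without 1 library. Of the named genes, 38 passed both thresholds, 22 with limma on the authors' values and 0 to 36 without 1 library. The difference in total count was -90717.2 without mouse 68.

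Signs changed with all deposited libraries in CD4 (-1.48), MUP8 (0.07845) and GSTZ1 (0.0666685), with limma-voom with sample quality weights in USP18 (0.31), GSTZ1 (0.31), DLD (-0.037168) and ATP2B2 (4.36472), with limma on the authors' values in MUP8 (1.42) and ATP2B2 (1.85), and with the total count covariate in ATP2B2 (0.34). Without 1 library the log2 fold change ran from -3.08 to 0.50 in USP18, -0.37 to 0.36 in GSTZ1, -0.12 to 0.50 in DLD, -0.88 to 7.06 in ATP2B2 (the latter fitted, without counts in the remaining controls) and -0.70 to 0.14 in MUP8. The cause was not tested. No paired analysis was possible because the groups share no mice.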

Other observations

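The 21 interferon-stimulated genes tested summed to 2413 to 3740 CPM in S1-10, against 1552 CPM in mouse 69, 1159 CPM in mouse 71, 1274 CPM in mouse 72 and 3117 CPM in mouse 68. Without mouse 68, 17 had a positive change (median 0.50) and the 2-group fit called 4 higher. The 13-group fit without mouse 68 called 0, with 1 higher at an unadjusted p under 0.05. With mouse 68, 12 were positive (median 0.10) and 1, USP18, was a DEG, lower. Ifitm3, listed as IFITM3, a restriction factor of virus entry, had 1191 to 2525 CPM in S1-10 (median 1808), against 0.590 CPM in mouse 68, 648 CPM in mouse 69, 314 CPM in mouse 71 and 456 CPM in mouse 72. All treated mice were above all controls. The change in IFITM3 was 1.97 in the 2-group fit without mouse 68 (SE 0.31, edgeR adjusted p = 0.00232) and 2.37 in the 13-group fit (adjusted p = 0.326 from edgeR). IRF7 and GBP6, chosen after their values were seen, an interferon regulatory factor and a guanylate-binding protein, were also above all controls. IRF7 had 60.7 to 105 CPM against 20.1 to 35.8 CPM (1.44, adjusted p = 0.00543 in the 2-group fit without mouse 68; 1.55, adjusted p = 0.11 in the 13-group fit, edgeR). GBP6 had 18.3 to 47.0 CPM against 5.31 to 15.5 CPM (1.67, adjusted p = 0.0169 in the 2-group fit without mouse 68, and 1.86, adjusted p = 0.174 in the 13-group fit, edgeR). The 13-group fit without mouse 68 called none of IFITM3, IRF7 and GBP6 (edgeR adjusted p = 0.739, 0.476 and 0.588).

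Of 22 male-biased liver genes, 18 had a positive change, with a median of 0.94 (0.61 without mouse 68), and the 2-group fit without mouse 68 called 9 higher and 0 lower. In the 13-group fit 1 was a DEG, C8A, which is also on the complement list, and without mouse 68 that fit called 0. MUP15, chosen after its values were seen, had 3476 to 5056 CPM in S1-10 (median 3872), against 0 counts in mouse 68, 1368 CPM in mouse 69, 737 CPM in mouse 71 and 1123 CPM in mouse 72. MUP15 was above all controls in all treated mice (1.93, adjusted p = 0.001 in the 2-group fit without mouse 68, and 2.34, adjusted p = 0.325 in the 13-group fit, edgeR). The 13-group fit without mouse 68 did not call MUP15 either (edgeR adjusted p = 0.735). MUP8, the most abundant of the list, overlapped (-0.29, adjusted p = 0.875 from edgeR).

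Pancreatic genes were seen in mouse 17. AMY2A5, pancreatic amylase, chosen after its values were seen, had 421 CPM in mouse 17 and 0 to 4.13 CPM in the other 9 libraries. The 10 pancreatic markers tested summed to 5411 CPM in mouse 17, 468 to 596 CPM in the other treated mice and 106 to 192 CPM in the controls. AMY1 alone, which liver also makes, had 365 to 567 CPM in S1-10, 22.4 CPM in mouse 68 and 107 to 184 CPM in the other controls, so outside mouse 17 the gap between the groups in this sum rests on that gene. Their median log2 fold change was 5.16 with all libraries and -0.96 without mouse 17, with 9 and 3 of 10 genes positive.

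Mice 67 and 70 of Control-10 are not in the normalized table. Mouse 67 had 634516 counts over 2705 genes with at least 1 count, UGDH took 7.499% of them, and its rank correlation was 0.595 with mouse 68, 0.346 with mouse 69, 0.394 with mouse 71 and 0.356 with mouse 72. Mouse 70 had 352872 counts over 1558 genes, MUP8 was the most abundant, and its rank correlation was 0.669 with mouse 68, 0.869 with mouse 69, 0.865 with mouse 71 and 0.873 with mouse 72. Mouse 67 was thus nearest in rank to mouse 68, in which UGDH was also the most abundant gene. With the mean of the other kept controls the rank correlation was 0.865 for the left-out mouse 70 and 0.746 for the kept mouse 68. Of the genes described here and named by rule whose treated mice were wholly apart from the 4 kept controls, mouse 67 did not lie on the side of those controls in SERPINE2, ERO1LB, ENPP6, CD4, CYP3A11, EPHX1, COL1A1, IGFBP3 and RHEB, nor mouse 70 in C3, F11, ERO1LB, CYP3A11, CYP2A5, CBR3, TIMP1, IGFBP6 and NOL3. The cause was not tested.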
